A study of Mus musculus with 6 samples.

Results

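The mitochondrial respiratory chain and ATP synthase were followed in TC-1/A9 cells, an MHC class I-deficient mouse tumour line, after culture with IFNγ. The genes were chosen by name, as those whose platform symbol starts with Nduf, Uqcr, Atp5 or Cox4 to Cox8, together with Sdha, Sdhb, Sdhc, Sdhd, Cyc1 and Cycs. The rule found 67 genes among the 7806 named genes measured, through 90 of 12421 probes of the deposited value table, and each gene is represented by its probe with the highest mean signal. They are 28 complex I subunits, 6 complex I assembly factors, 2 subunits of complex II, 6 of complex III, cytochrome c, 9 genes of complex IV, 14 of complex V (ATP synthase) and the pseudogene Ndufs5-ps. The mouse annotation lists 98 protein-coding genes under the same rule, of which 66 are among these 67, and the others were not analysed here.

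TC-1/A9 cells carry the C57BL/6 background and derive from TC-1 tumours that developed in immunized mice; TC-1 itself was made from lung cells by transfer of papillomavirus oncogenes and an activated ras gene. The 3 IFNγ cultures were given 24 h in fresh medium and then 24 h in medium with IFNγ, at 50 U/ml by the sample labels, whereas the methods of the study state a higher dose for the arrays. The 3 untreated cultures of the same line served as control, and total RNA of each culture was read on an Illumina Mouse WG6 bead array. The paper calls the cultures of a group biological triplicates, and p-values measure the spread between them. Values below are log2 signals of the arrays after quantile normalization, and a difference of 1 is a doubling. Each array read RNA of a whole culture, so fewer cells with a transcript and less of it per cell cannot be told apart. Of 4 mesenchymal markers examined, Col1a1 and Col3a1 had no named probe here. Vim averaged 13.28 in IFNγ cultures and 13.20 in untreated cultures, and Fn1 averaged 9.28 in IFNγ cultures and 8.96 in untreated cultures. Of 4 leukocyte markers only the macrophage marker Cd68 had a named probe, near the detection limit at 6.23 in IFNγ cultures and 6.29 in untreated cultures. The epithelial list (Epcam, Cdh1, Krt8, Krt18) and the alveolar list (Sftpc, Sftpa1, Sftpb) had no named probe here.

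The respiratory chain passes electrons from NADH (complex I) and succinate (complex II) through ubiquinone to complex III, then through cytochrome c to complex IV, which reduces oxygen. Complexes I, III and IV pump protons across the inner mitochondrial membrane, and ATP synthase lets them flow back to make ATP. Nearly all of the subunits are encoded in the nucleus, made in the cytosol and imported, while the mitochondrial genome supplies a small core of subunits, translated on the mitochondrial ribosome. IFNγ signals through JAK kinases, mainly to genes of antigen presentation and cell-autonomous defence.

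After IFNγ none of the 67 genes passed the test in either direction (limma, FDR below 0.01). Over all 13545 probes tested, 1.04% were called higher and 0.0148% were called lower. The lowest adjusted p among the 67 genes was 0.376, for Uqcr11, a small subunit of complex III. Log2 fold changes lay between -0.40 for Uqcr11 and 0.17 for Atp5a1. The 95% interval of every one of the 67 lay within 1 of 0 on the log2 scale. A doubling or a halving of the signal thus lies outside the interval of each of these 67 brightest probes. This does not extend to every dimmer probe, and Cox5b is an exception given below. The intervals of 45 genes lay within 0.5 of 0, and those of 59 included 0.

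The small differences nevertheless ran mostly one way. The fold change was below 0 for 60 of 67 genes (89.6%), against 53.2% of all tested probes. Its median was -0.15, against -0.01 over all tested probes. The sets compared here and below differ in signal level. The median untreated level was 10.96 for the 67 genes, against 7.36 over all tested probes. For complexes I to V it was 11.04, 9.61, 11.36, 11.96 and 11.87. Whether signal level bears on these shares was not tested. At an unadjusted p below 0.05 there were 8 genes lower and 0 higher in IFNγ cultures, where 3.64% of all probes were lower and 4.16% were higher. All 3 IFNγ arrays lay below all 3 untreated arrays for 11 genes (16.4%), against 6.88% of all probes, and above them for 0 genes, against 6.32%. These 11 were Ndufa3, Ndufa6, Ndufa13, Ndufb3, Ndufb7 and Ndufv1 of complex I, the assembly factor Ndufaf1, Cyc1 and Uqcr11 of complex III, and Atp5h and Atp5o of ATP synthase.

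**Figure D1:**
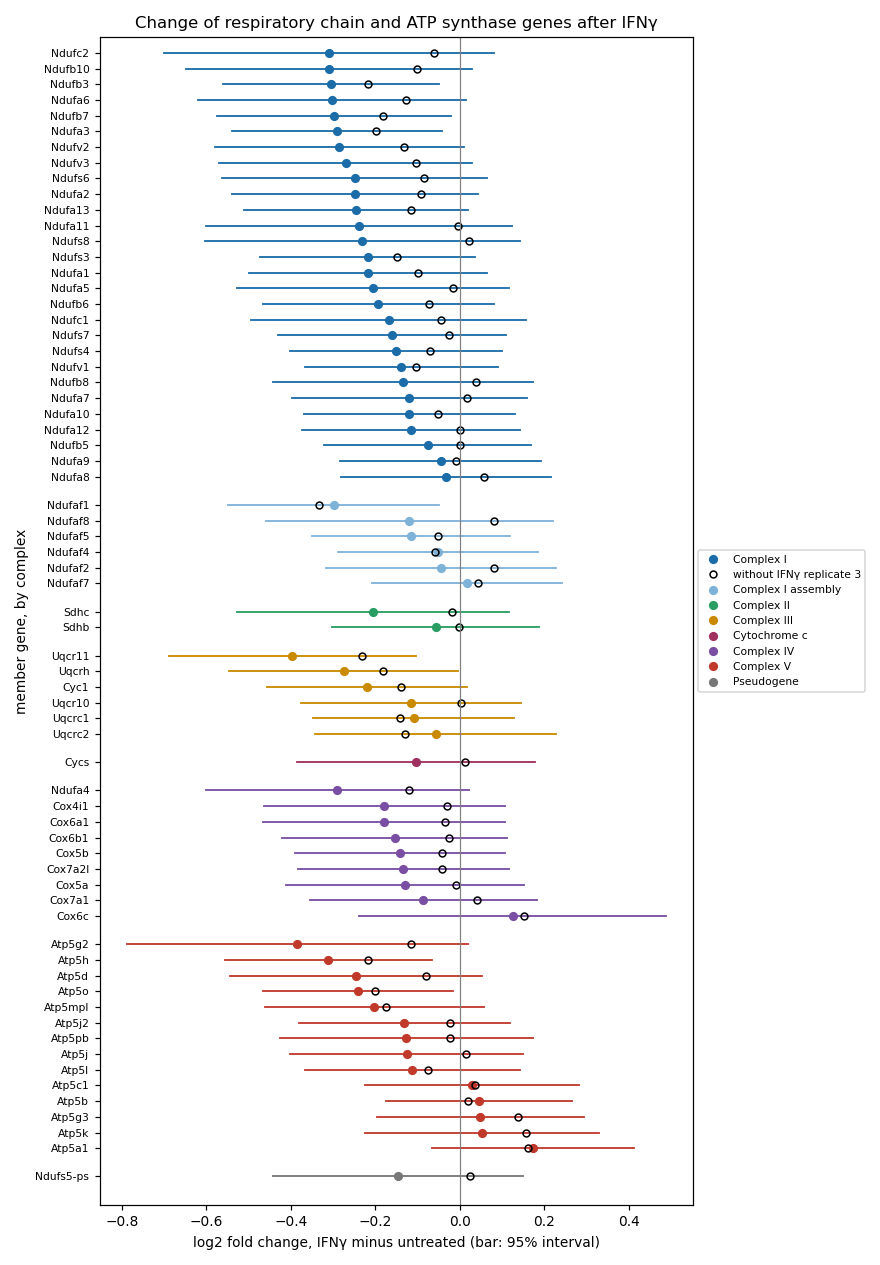
Log2 fold change of each of the 67 genes, IFNγ minus untreated, with its 95% interval from limma (filled points and bars, coloured by complex), and the change when IFNγ replicate 3 is left out (open circles). Nearly all filled points lie left of 0, down to -0.40 for Uqcr11, and most open circles lie closer to 0, with a median of -0.04.

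The difference lay mostly in IFNγ replicate 3. Relative to each gene's untreated mean, the median of the 67 genes was -0.03, -0.05 and -0.38 in IFNγ replicates 1, 2 and 3, and -0.01 in each of the 3 untreated replicates. IFNγ replicate 3 was the lowest of the 6 arrays for 57 of 67 genes (85.1%), against 30.6% of all tested probes. That array also stood apart over all 45281 probes, since its log2 signals correlated with those of its own group at 0.989 and 0.991, whereas all other pairs of arrays within a group correlated at 0.994 to 0.995. Its number of detected probes (12165) and its median intensity (50.8) lay within the ranges of the other arrays, 11504 to 12423 probes and 48.7 to 55.4. Without it, the median change of the 67 genes was -0.04, against -0.02 over all probes, 48 genes (71.6%) were below 0, against 55.4% of all probes, and at an unadjusted p below 0.05 there were 3 genes lower and 0 higher, where 3.34% of all probes were lower and 4.09% were higher. By their definition, the 11 genes listed above had both remaining IFNγ arrays below all untreated arrays (16.4%, against 12.1% of all probes). Omitting an array can only add to that count. No further gene joined them, and 1 gene, Atp5g3, had both above (1.49%, against 9.53% of all probes).

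**Figure D2:**
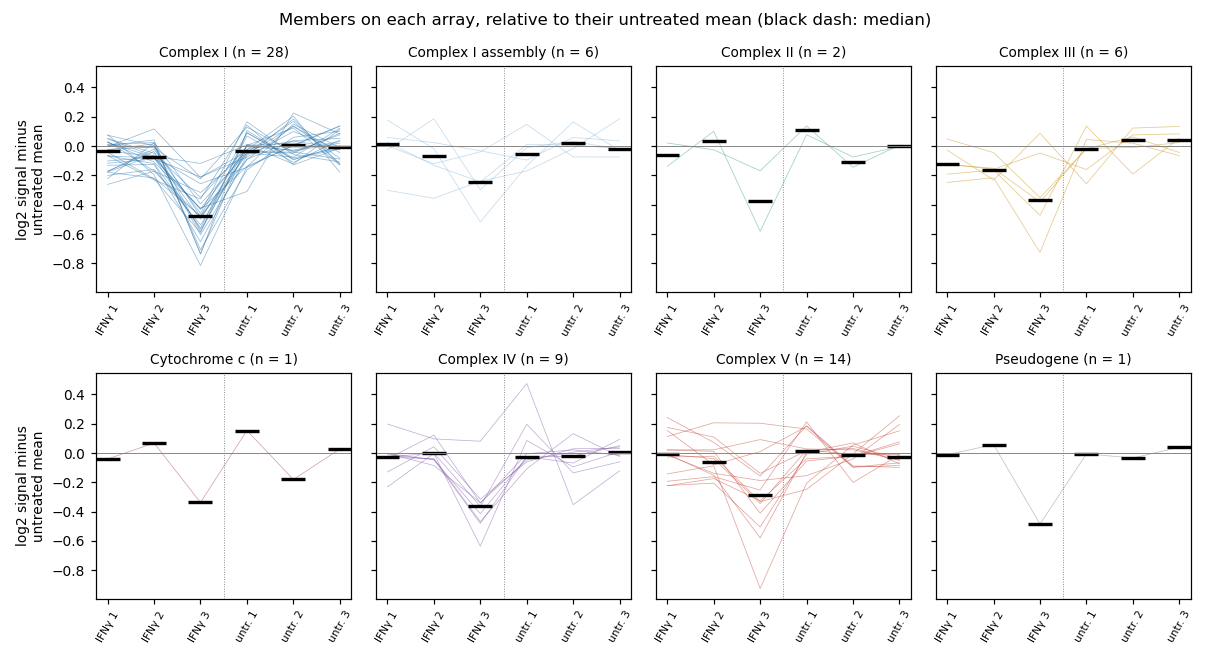
Log2 signal of each gene on each array, relative to its mean over the 3 untreated arrays, by complex (thin lines join the values of 1 gene, black dashes are medians; arrays have no order within a group). The medians of IFNγ replicates 1 and 2 lie near 0 for most complexes, while that of IFNγ replicate 3 is -0.48 for complex I and -0.29 for complex V.

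The promoters of these genes show a feature that the choice by name did not use. Many respiratory genes are known targets of NRF1, whose site is close to GCGCATGCG, and of ETS factors such as GABP, whose core is CCGGAAG. The 250 bases before the start site, taken from RefSeq (GRCm38.p6), were searched on both strands for these letters and for those of YY1 (AAGATGGCG) and of interferon regulatory factors (GAAANNGAA). There were 63 promoters for 58 of the 67 genes, and 32851 promoters in all. The NRF1 letters stood in 8 of the 63 (12.7%), against 1.45% of all promoters, and the ETS letters in 12 (19.0%), against 6.91%. The letters of interferon regulatory factors stood in 5 (7.94%), against 7.13%, and those of YY1 in 1 (1.59%), against 0.606%. A match is a description of the sequence and not a site of binding. The promoters below, 5′ to 3′ and ending at the base before the start, have the matched letters in capitals. Cycs and Cox6a1 are shown for the NRF1 letters, which overlap on the 2 strands in Cox6a1 and are followed there by the ETS letters; Uqcr11, the gene with the lowest adjusted p, is shown for the ETS letters. Ndufa4 and its interferon-responsive paralogue AA467197, described further below, are shown because none of these motifs matched in either. Positions are chr6:50566570-50566819, minus strand, for Cycs; chr5:115348959-115349208, minus strand, for Cox6a1; chr10:80406822-80407071, minus strand, for Uqcr11; chr6:11907451-11907700, minus strand, for Ndufa4; and chr2:122637637-122637886, plus strand, for AA467197.
Cycs: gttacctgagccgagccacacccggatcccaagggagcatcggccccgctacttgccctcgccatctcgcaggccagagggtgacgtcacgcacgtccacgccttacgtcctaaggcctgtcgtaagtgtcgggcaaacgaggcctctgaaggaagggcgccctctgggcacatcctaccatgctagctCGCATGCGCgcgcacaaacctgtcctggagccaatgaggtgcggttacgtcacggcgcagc
Cox6a1: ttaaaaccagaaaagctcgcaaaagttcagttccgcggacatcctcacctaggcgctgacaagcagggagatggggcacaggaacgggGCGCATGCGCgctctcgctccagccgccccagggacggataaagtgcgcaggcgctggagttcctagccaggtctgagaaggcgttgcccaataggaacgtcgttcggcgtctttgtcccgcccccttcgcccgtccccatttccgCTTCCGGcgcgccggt
Uqcr11: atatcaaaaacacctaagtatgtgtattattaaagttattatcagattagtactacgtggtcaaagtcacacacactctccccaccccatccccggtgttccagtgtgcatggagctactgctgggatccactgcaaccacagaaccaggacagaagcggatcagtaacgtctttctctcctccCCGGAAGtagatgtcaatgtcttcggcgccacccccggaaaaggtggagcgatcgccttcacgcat
Ndufa4: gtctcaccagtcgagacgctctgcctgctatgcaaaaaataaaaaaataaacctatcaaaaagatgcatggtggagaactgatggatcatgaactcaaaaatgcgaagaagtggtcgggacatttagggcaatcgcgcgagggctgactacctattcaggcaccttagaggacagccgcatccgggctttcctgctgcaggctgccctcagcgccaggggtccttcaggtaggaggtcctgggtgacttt
AA467197: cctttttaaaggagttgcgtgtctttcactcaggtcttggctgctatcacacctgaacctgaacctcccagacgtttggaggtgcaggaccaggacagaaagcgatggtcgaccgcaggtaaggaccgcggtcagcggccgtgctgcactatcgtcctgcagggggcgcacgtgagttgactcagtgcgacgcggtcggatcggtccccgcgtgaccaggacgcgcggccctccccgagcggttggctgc

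In complex I, the NADH dehydrogenase, all 28 subunits had a fold change below 0, and none was called. The median was -0.22, and the range ran to -0.31 for Ndufb10 and Ndufc2 and to -0.03 for Ndufa8. The 5 core subunits that bind the flavin and the iron-sulphur clusters or line the ubiquinone site (Ndufv1, Ndufv2, Ndufs3, Ndufs7, Ndufs8) had a median of -0.22, as had the 23 accessory subunits. IFNγ replicate 3 was the lowest of the 6 arrays for 27 of the 28. Without it the median was -0.07 and 23 of 28 were below 0.

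Ndufc2, an accessory subunit of the membrane arm, had 10.82, 10.54 and 9.93 in IFNγ replicates 1, 2 and 3, against 10.60, 10.89 and 10.73 in untreated replicates. Only IFNγ replicate 3 lay below all untreated values, and the change of -0.31 (95% interval -0.70 to 0.08, adjusted p = 0.704) was -0.06 without it. Ndufb10, of the same arm, had 8.03, 8.28 and 7.52, against 8.27, 8.22 and 8.28 in untreated cultures, again with the groups overlapping, and its change of -0.31 was -0.10 without IFNγ replicate 3. Ndufa3 had 11.32, 11.28 and 11.02 in IFNγ cultures, against 11.58, 11.41 and 11.49 in untreated cultures. Here the groups did not overlap, and the change of -0.29 (95% interval -0.54 to -0.04, adjusted p = 0.531) was -0.20 without IFNγ replicate 3. Ndufb3 was alike, with 8.96, 9.05 and 8.74 against 9.13, 9.36 and 9.18 in untreated cultures. Ndufa13, an accessory subunit also known as GRIM-19 and described in human cells as a binding partner of STAT3, had 12.78, 12.89 and 12.45 in IFNγ cultures, against 12.96, 12.97 and 12.93 in untreated cultures. Its groups did not overlap, and its change was -0.25 (95% interval -0.51 to 0.02, adjusted p = 0.665), and -0.12 without IFNγ replicate 3. Ndufs6, an accessory subunit of the NADH-oxidising module, had 12.68, 12.70 and 12.21 against 12.75, 12.98 and 12.60 in untreated cultures, a change of -0.25 that was -0.09 without that array. Ndufv1, the flavin-carrying core subunit, had the smallest spread among IFNγ cultures of the 28 subunits, with 11.75, 11.78 and 11.66 against 11.79, 11.97 and 11.85 in untreated cultures, a change of -0.14 (95% interval -0.37 to 0.09, adjusted p = 0.769).

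The 6 assembly factors chosen by name, which build complex I without staying in it, had a median of -0.08 and none was called. Ndufaf1, which joins the early membrane part of complex I, had 7.88, 7.82 and 7.94 in IFNγ replicates 1, 2 and 3, against 8.01, 8.16 and 8.37 in untreated replicates. IFNγ replicate 3 was the highest of its group here, and all IFNγ values lay below all untreated values. The change was -0.30 (95% interval -0.55 to -0.05, adjusted p = 0.508), and -0.33 without IFNγ replicate 3 (adjusted p = 0.298). A fit that weights the arrays by their quality gave Ndufaf1 an adjusted p of 0.0126. This was the lowest of the 67 genes in that fit and still above the FDR of 0.01. The weights, estimated from these same 6 arrays, ran from 0.232 for IFNγ replicate 3 to 2.67 for untreated replicate 3. Within the IFNγ group, replicate 1 had the highest weight. That fit thus rests largely on IFNγ replicate 1 and untreated replicate 3, and is not an independent test. Ndufaf7, a methyltransferase of complex I assembly, was the only gene of this group above 0, with 7.55, 7.52 and 7.46 in IFNγ cultures, against 7.40, 7.55 and 7.53 in untreated cultures. For Ndufaf2, Ndufaf4, Ndufaf5 and Ndufaf8 the changes lay between -0.12 and -0.05, with overlapping groups. The pseudogene Ndufs5-ps, whose probe may also read its parent gene, had a change of -0.15, with 10.13 in IFNγ replicate 3 and 10.58 to 10.68 in the other 5 arrays, and 0.02 without IFNγ replicate 3.

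Of complex II, succinate dehydrogenase, the iron-sulphur subunit Sdhb and the membrane anchor Sdhc were measured. Sdhb had 9.37, 9.32 and 9.18 in IFNγ cultures, against 9.48, 9.20 and 9.36 in untreated cultures. Sdhc had 9.73, 9.97 and 9.28 in IFNγ cultures, against 9.94, 9.79 and 9.86 in untreated cultures. The groups overlapped for both, with changes of -0.06 (95% interval -0.30 to 0.19, adjusted p = 0.92) for Sdhb and -0.21 (95% interval -0.53 to 0.12, adjusted p = 0.762) for Sdhc. Without IFNγ replicate 3 the change of Sdhc was -0.02.

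With all 6 arrays, the largest difference of the 67 genes lay in complex III, the cytochrome bc1 complex. Uqcr11, a small accessory subunit, had 11.28, 11.31 and 10.80 in IFNγ replicates 1, 2 and 3, against 11.57, 11.54 and 11.46 in untreated replicates. All IFNγ values lay below all untreated values, and IFNγ replicate 3 lay lowest. The change was -0.40 (standard error 0.14, 95% interval -0.69 to -0.10, adjusted p = 0.376), and -0.23 without IFNγ replicate 3 (adjusted p = 0.604), where that of Ndufaf1 was larger. Ndufaf1 was also ahead with array weights (-0.39, against -0.24 for Uqcr11), and Atp5g2 with neqc background correction (-0.43, against -0.40) and with cyclic loess (-0.37, against -0.35). Ndufc2 was ahead without IFNγ replicate 1, and Atp5g2 without IFNγ replicate 2 or without untreated replicate 1. Cyc1, cytochrome c1, which hands electrons to cytochrome c, had 10.55, 10.52 and 10.29 in IFNγ cultures, against 10.66, 10.66 and 10.70 in untreated cultures, also without overlap (change -0.22, 95% interval -0.46 to 0.02, adjusted p = 0.665, and -0.14 without IFNγ replicate 3). Uqcrh, the hinge protein that helps cytochrome c1 to bind cytochrome c, had 12.30, 12.32 and 12.02 against 12.62, 12.30 and 12.54 in untreated cultures, and Uqcr10 had 13.18, 13.08 and 12.78 against 13.11, 13.19 and 13.08. Their changes of -0.28 and -0.12 were -0.18 and 0.00 without IFNγ replicate 3. The core proteins Uqcrc1 and Uqcrc2 were the exceptions, since IFNγ replicate 3 was the highest of its group for both. Uqcrc2 had 11.07, 10.86 and 11.18 in IFNγ cultures, against 10.84, 11.22 and 11.23 in untreated cultures, and its change was -0.06 (95% interval -0.34 to 0.23, adjusted p = 0.933), and -0.13 without IFNγ replicate 3. The median of the 6 genes was -0.17, and -0.14 without IFNγ replicate 3.

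Cycs, the soluble cytochrome c that carries electrons to complex IV and that triggers caspase activation when released to the cytosol, had 9.86, 9.96 and 9.56 in IFNγ cultures, against 10.05, 9.72 and 9.92 in untreated cultures. The groups overlapped, with a change of -0.10 (95% interval -0.39 to 0.18, adjusted p = 0.866), and 0.01 without IFNγ replicate 3. On a dimmer Cycs probe near the detection limit they did not overlap, at 6.11 to 6.20 in IFNγ cultures and 6.21 to 6.29 in untreated cultures. Its promoter is the one shown above with the NRF1 letters, which begin 61 bases before the start.

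In complex IV, cytochrome c oxidase, 8 of 9 genes were below 0 and none was called. On the probe with the highest mean signal, no gene had groups that did not overlap. The median was -0.14, and -0.03 without IFNγ replicate 3. Cox6a1, the isoform of most tissues, had 13.10, 13.10 and 12.66 in IFNγ cultures, against 13.03, 13.27 and 13.11 in untreated cultures. Cox6b1, a subunit on the side of the intermembrane space, had 12.79, 12.75 and 12.38 against 12.76, 12.77 and 12.84 in untreated cultures. Cox4i1, the isoform of subunit 4 used in most tissues, had 12.49, 12.46 and 12.02 against 12.48, 12.43 and 12.59 in untreated cultures. In all 3 genes IFNγ replicate 3 lay below the untreated range, while IFNγ replicates 1 and 2 lay within it, apart from a slightly lower value of IFNγ replicate 2 for Cox6b1. The changes were -0.18, -0.15 and -0.18, with adjusted p-values of 0.767, 0.771 and 0.763 for Cox6a1, Cox6b1 and Cox4i1, and each was -0.03 without IFNγ replicate 3. The dimmer probes of Cox6a1 and Cox6b1 gave larger changes, -0.35 and -0.26, with groups that did not overlap. Without IFNγ replicate 3 these were -0.19 and -0.16. On the dimmer probes of Cox5b and Cox7a2l the groups overlapped, and both changes were -0.01 without that array. Cox6c was the only gene above 0, with 8.78, 8.67 and 8.66 in IFNγ cultures, against 9.05, 8.23 and 8.46 in untreated cultures, which spread more widely than the difference of 0.12 (95% interval -0.24 to 0.49, adjusted p = 0.878).

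Tissue isoforms of complex IV were looked at as well. Cox7a1, the heart and skeletal muscle isoform, was detected on all 6 arrays at a low signal, 6.71 ± 0.24 in IFNγ cultures and 6.80 ± 0.02 in untreated cultures (SD, n = 3 each). The lowest signal called detected lay between 6.07 and 6.18, depending on the array. Cox7a2l, described as a factor for supercomplexes of complexes III and IV, averaged 9.13 ± 0.18 in IFNγ cultures and 9.26 ± 0.05 in untreated cultures (SD, n = 3 each). Whether its product acts so in these C57BL/6 cells cannot be read from RNA. The muscle isoforms Cox6a2 and Cox8b and the isoforms Cox4i2, Cox6b2 and Cox7b2 of other tissues had no named probe here.

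Ndufa4 was first counted with complex I and is now placed in complex IV. It had 11.64, 11.87 and 11.23 in IFNγ cultures, against 11.95, 11.77 and 11.88 in untreated cultures, a change of -0.29 (95% interval -0.60 to 0.02, adjusted p = 0.665) that was -0.12 without IFNγ replicate 3. Its paralogue AA467197 is the mouse counterpart of human C15orf48, whose product can take the place of NDUFA4 in complex IV of human cells. It does not fall under the naming rule, and it rose, with 11.91, 11.39 and 11.72 in IFNγ cultures, against 8.14, 8.17 and 8.22 in untreated cultures. Its log2 fold change was 3.50 (standard error 0.13, adjusted p = 1.05e-09). The 2 genes thus had opposite signs, of which that of AA467197 alone passed the test, and the difference between them was not tested.

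**Figure D3:**
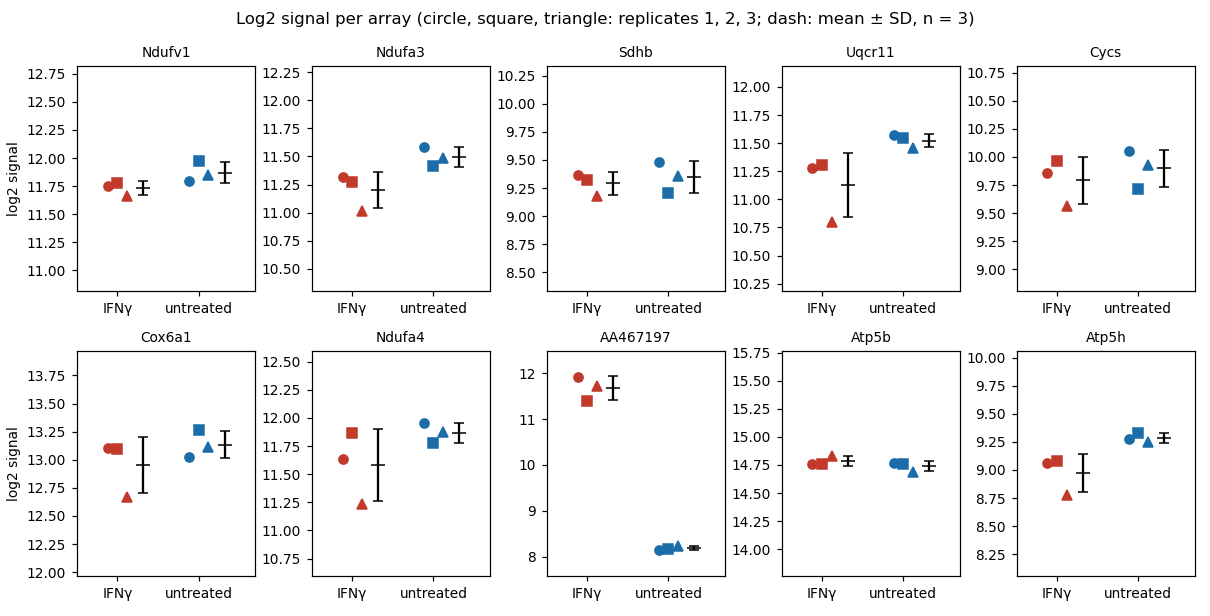
Log2 signal of 10 genes on each array (circle, square and triangle for replicates 1, 2 and 3; dashes and bars for mean and SD, n = 3), IFNγ left and untreated right. The vertical axes span the same range in 9 panels and a wider one for AA467197, which lies at 11.39 to 11.91 in IFNγ cultures and 8.14 to 8.22 in untreated cultures, whereas the triangle of IFNγ replicate 3 lies lowest in most other panels.

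ATP synthase, complex V, was the most mixed, with 9 of 14 genes below 0, 5 above, none called and a median of -0.13. The catalytic head and central stalk, where ATP is made, had a median of 0.04 over 4 genes, and their medians relative to untreated cultures were 0.07, -0.03 and 0.05 in IFNγ replicates 1, 2 and 3. The 4 genes of the peripheral stalk, which holds the head still, had a median of -0.18 and were lowest in IFNγ replicate 3 without exception. The 6 genes of the c ring and the membrane part had a median of -0.12, and IFNγ replicate 3 was the lowest of the 6 arrays for all 6 of them as well, against 1 of the 4 genes of the head and central stalk. Without that array the medians were 0.03 for the head and central stalk, -0.11 for the peripheral stalk and -0.05 for the c ring and membrane part.

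Atp5b, the catalytic beta subunit, had 14.76, 14.76 and 14.83 in IFNγ cultures, against 14.77, 14.76 and 14.69 in untreated cultures. The groups overlapped, and the change of 0.05 had a 95% interval of -0.17 to 0.26 (adjusted p = 0.931). Atp5a1, the alpha subunit, had the highest fold change of the 67 genes with all 6 arrays, 0.17 (95% interval -0.06 to 0.41, adjusted p = 0.723), on a probe of low signal: 6.71, 6.80 and 6.80 in IFNγ cultures, against 6.76, 6.50 and 6.53 in untreated cultures. The gamma subunit Atp5c1, the rotor of the central stalk, had a change of 0.03 (adjusted p = 0.965). Atp5d, its neighbour in the stalk, followed IFNγ replicate 3, with 9.91, 9.77 and 9.34 against 9.92, 9.99 and 9.84 in untreated cultures, and its change of -0.25 was -0.08 without that array.

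In the peripheral stalk, Atp5h had 9.06, 9.08 and 8.78 in IFNγ cultures, against 9.28, 9.33 and 9.25 in untreated cultures. The groups did not overlap, and the change was -0.31 (95% interval -0.56 to -0.07, adjusted p = 0.46), and -0.22 without IFNγ replicate 3 (adjusted p = 0.654). Atp5o, the subunit that confers oligomycin sensitivity, had 12.55, 12.59 and 12.44 in IFNγ cultures, against 12.73, 12.75 and 12.83 in untreated cultures, again without overlap. Its change was -0.24 (95% interval -0.47 to -0.02, adjusted p = 0.597), and -0.20 without IFNγ replicate 3. The dimmer probe of Atp5o differed, with overlapping groups and a change of -0.16, and 0.04 without IFNγ replicate 3.

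The c ring, which turns as protons pass, is encoded by several genes for the same mature protein, of which Atp5g2 and Atp5g3 were measured. Atp5g2 had 8.56, 8.62 and 7.78 in IFNγ cultures, against 8.50, 8.76 and 8.86 in untreated cultures, so IFNγ replicate 3 alone lay below the untreated range. Its change was -0.38 (95% interval -0.79 to 0.02, adjusted p = 0.662), and -0.12 without that array. Atp5g3 had 14.15, 14.09 and 13.84 in IFNγ cultures, against 14.00, 14.01 and 13.93 in untreated cultures. IFNγ replicates 1 and 2 lay above and IFNγ replicate 3 below all untreated values, and the change was 0.05 (adjusted p = 0.935), and 0.14 without IFNγ replicate 3 (adjusted p = 0.882). Atp5k, a small membrane subunit, was detected on 3 of 6 arrays only, with 6.42, 6.25 and 6.02 in IFNγ cultures, against 6.36, 6.09 and 6.08 in untreated cultures, so its values lay at the detection limit. The other 66 genes were detected on all 6 arrays.

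More than 1 probe was measured for 20 genes. All probes of a gene had changes below 0 for 17 of them, and for Atp5pb, Ndufb8 and Sdhb the probes differed in sign. None of the 90 probes was called, and the lowest adjusted p among them was again 0.376. Cytochrome c oxidase gave an example of the spread between probes of a gene, since the changes of Cox5b were -0.14 on the brighter and -0.44 on the dimmer probe. The dimmer probe had 9.35, 9.41 and 8.11 in IFNγ replicates 1, 2 and 3, and without IFNγ replicate 3 the changes were -0.04 on the brighter and -0.01 on the dimmer probe. Both probes of Cycs had a change of -0.10, and without IFNγ replicate 3 the changes were 0.01 on the brighter and -0.08 on the dimmer probe. Probes of other genes differed more without that array. Ndufc1 had -0.05 on the brighter and -0.19 on the dimmer probe, and Cox6a1 had -0.03 and -0.19. Atp5o went the other way, with -0.20 on the brighter and 0.04 on the dimmer probe.

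Other mitochondrial genes were read in the same fit, from lists of known function. Of a list of 44 assembly factors and related genes of the complexes outside the naming rule, 33 were measured and none was called, with a median of -0.03. Lrpprc, which keeps mitochondrial messenger RNAs stable, had the largest change with all 6 arrays, with 8.46, 8.60 and 8.92 in IFNγ cultures, against 8.28, 8.32 and 8.28 in untreated cultures. These groups did not overlap (change 0.37, 95% interval 0.10 to 0.64, adjusted p = 0.373), and IFNγ replicate 3 was highest; without it the change was 0.24 (adjusted p = 0.578). Coa3, an assembly factor of complex IV, had a change of -0.29 (adjusted p = 0.644), and -0.13 without IFNγ replicate 3 (adjusted p = 0.899). Of 19 genes of the citric acid cycle and pyruvate dehydrogenase, 14 were measured and none was called, with a median of -0.01. With all 6 arrays the largest changes were -0.17 for Pdha1, a subunit of pyruvate dehydrogenase, and 0.13 for citrate synthase (Cs), with adjusted p-values of 0.774 and 0.822. Without IFNγ replicate 3 they were -0.32 for Pdha1 (adjusted p = 0.285) and 0.08 for Cs.

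Of 21 regulators of mitochondrial biogenesis and of mitochondrial DNA, 17 were measured and none was called, with a median of -0.03. Among them Nrf1, the factor whose letters were searched above, had 10.10, 10.07 and 10.49 in IFNγ cultures, against 9.89, 10.38 and 10.24 in untreated cultures (change 0.05, adjusted p = 0.948). Tfam, which packs and transcribes mitochondrial DNA, had a change of 0.07 (adjusted p = 0.895). With all 6 arrays the largest changes were -0.24 for Mterf4 and 0.18 for Polrmt, the mitochondrial RNA polymerase, and both had adjusted p-values of 0.771. Without IFNγ replicate 3 both took the other sign, at 0.04 for Mterf4 and -0.01 for Polrmt, and Nrf1 did so at -0.09. Of 29 genes for other donors to ubiquinone, its synthesis, carriers and coupling, 22 were measured and none was called, with a median of -0.02. Dhodh, which feeds electrons from pyrimidine synthesis into ubiquinone, had 7.76, 7.35 and 7.36 in IFNγ cultures, against 7.85, 8.06 and 7.79 in untreated cultures. Its groups did not overlap, and its change was -0.41 (95% interval -0.69 to -0.13, adjusted p = 0.301), and -0.35 without IFNγ replicate 3. Slc25a3, the phosphate carrier that supplies ATP synthase, had a change of 0.29 (95% interval 0.04 to 0.54, adjusted p = 0.543), and 0.19 without IFNγ replicate 3 (adjusted p = 0.77).

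The mitochondrial ribosome, which translates the subunits encoded in the mitochondrial genome, gave values close to those of the respiratory chain. Of its 70 measured genes none was called, the median was -0.13, and 62 were below 0 (88.6%). Relative to untreated cultures its medians were -0.02, -0.03 and -0.40 in IFNγ replicates 1, 2 and 3. IFNγ replicate 3 was the lowest of the 6 arrays for 60 of the 70 (85.7%), and without it the median was -0.03. Mrps21 had 8.64, 8.93 and 8.04 in IFNγ cultures, against 9.14, 8.77 and 9.03 in untreated cultures (change -0.44, adjusted p = 0.569), and Mrps6 had a change of -0.35 (adjusted p = 0.633). Without IFNγ replicate 3 the changes were -0.19 for Mrps21 and -0.14 for Mrps6. The assembly factor list had a median of -0.13 in IFNγ replicate 3, which was the lowest of the 6 arrays for 18 of its 33 genes (54.5%), against 30.6% of all tested probes. The ubiquinone list had -0.04 (lowest for 7 of 22, 31.8%), the biogenesis list -0.02 (5 of 17, 29.4%) and the citric acid cycle list 0.05 (3 of 14, 21.4%). What sets IFNγ replicate 3 apart was not tested.

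**Figure D4:**
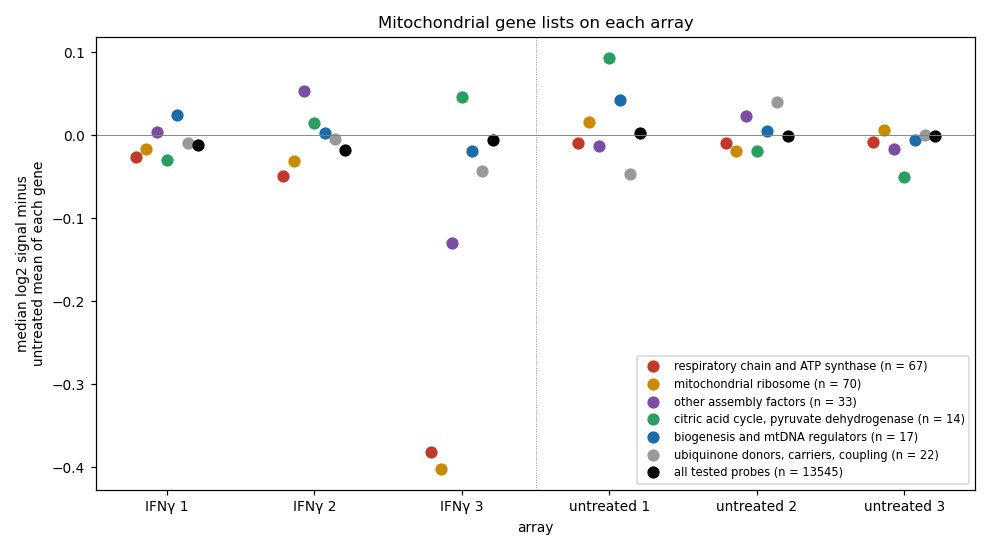
Median log2 signal of each mitochondrial gene list on each array, relative to each gene's untreated mean, with the median of all 13545 tested probes in black. On IFNγ replicate 3 the respiratory chain lies at -0.38, the mitochondrial ribosome at -0.40 and the assembly factors at -0.13, while the citric acid cycle list lies at 0.05 and all probes at -0.01.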

How the data were processed

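RNA of 3 IFNγ and 3 untreated TC-1/A9 cultures was analysed; DAC/TSA-treated and RVP3 samples were not analysed here. The deposited array file holds a bead intensity per probe, exported from BeadStudio and not normalized between arrays. It pairs each with a deposited detection p-value, the probe's signal set against negative controls. A second deposited table, on the log2 scale, equalled quantile-normalized log2 intensities of all 45281 probes within 4.97e-14. How the export treated background is not stated in the sources.

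Intensities were put on the log2 scale and quantile normalized, and 13545 probes were tested, those with a detection p of 0.01 or less on any of the 6 arrays. IFNγ and untreated cultures were compared by limma 3.58.1 in R 4.3.3 (lmFit, eBayes), with Benjamini-Hochberg adjustment over all 13545 and an FDR below 0.01. The fit was tested on simulated data with independent noise for each probe and array. No array in them had a shift shared by many probes, as IFNγ replicate 3 had here. The number of arrays limits the precision. Symbols were those of the platform annotation. Of the 67 genes 62 were matched to current records by Entrez ID and 2 by accession, while 3 were kept as listed.

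The members, lists and tests were chosen with earlier results of these data known. Genes named are, per complex, the 2 of highest mean signal and the 2 of largest change in each direction, isoforms of one subunit, and of each other list the 2 with the largest change. Others, among them Ndufaf1 and the genes with groups that did not overlap, were named after their values were seen. Same-numbered arrays did not deviate together, so the numbers were not taken as pairs. Alternatives were other background corrections, normalizations, filters, variance models, array weights, a replicate block, arrays left out and the mean over a gene's probes. A promoter motif that was also searched is not reported here.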

Additional observations from a re-analysis of the deposited data

How the results depend on the processing

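None of the 67 genes was called, higher or lower, under any of the alternatives tried. Among these were neqc or normexp background correction, 75th percentile centring, cyclic loess, the authors' value table and other detection filters. A trended and robust eBayes, array weights, a replicate block and the omission of any array were tried as well. The others were an FDR below 0.05 in the main fit, the mean over a gene's probes and current symbols in the naming rule. With array weights the lowest adjusted p of the 67 genes was 0.0126, for Ndufaf1, above the FDR of 0.01 but below 0.05. That fit rests largely on IFNγ replicate 1 and untreated replicate 3, which had the highest weights. The median change of the 67 genes lay between -0.24 and -0.04 as each array was omitted (-0.04 without IFNγ replicate 3), and was -0.06 with array weights, -0.13 with cyclic loess and -0.26 with 75th percentile centring, which put the median of all probes at -0.04. That centring also moved the medians of complex III to -0.28 and of complex V to -0.24. As each array was omitted, the medians lay between -0.31 and -0.07 for complex I, -0.22 and -0.01 for complex II, -0.23 and -0.14 for complex III, -0.22 and -0.03 for complex IV, -0.18 and -0.02 for complex V and -0.19 and 0.013 for cytochrome c. The number of genes whose groups did not overlap, with arrays omitted in an alternative chosen after seeing the data, lay between 11 and 23 with IFNγ lower (16.4% to 34.3%, against 10.5% to 15.4% of all probes) and between 0 and 3 with IFNγ higher (up to 4.48%, against 8.97% to 13.3%); omitting an array can only add to it.

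Changes near 0 took the other sign in 14 cases, none of them called, and the cause was not tested. With 75th percentile centring these were Ndufaf7 (-0.0033), Atp5b (-0.050) and Atp5g3 (-0.13), and with array weights Sdhb (0.0070) and Uqcr10 (0.014). As each array was omitted, the change lay between -0.030 and 0.047 for Ndufaf7, -0.13 and 0.011 for Sdhb, -0.20 and 0.0030 for Uqcr10, -0.19 and 0.013 for Cycs, -0.052 and 0.36 for Cox6c, -0.016 and 0.14 for Atp5g3, -0.042 and 0.16 for Atp5k, and -0.19 and 0.040 for Cox7a1. With the replicate number as a block (replicate block), the lowest adjusted p of the 67 genes was 0.258 and their median -0.15, and no call changed. The deviations of same-numbered arrays correlated at -0.19, 0.043 and -0.025.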
